A study of Homo sapiens with 54 samples.

Results

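The integrated stress response regulators ATF3, ATF4, ATF5, DDIT3, TRIB3, CEBPB, CEBPG, PPP1R15A, DDIT4 and SESN2 were followed in HEK293T cells, a human embryonic kidney cell line, across 18 groups of 3 libraries. They are the transcription factors and feedback regulators of this response. They were taken by gene name, in a list drawn up with earlier results of these data known. They make up 10 of the 38137 genes listed. All 10 passed the filter on low counts, which left 15378 genes to test.

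The study compared RfxCas13d, an RNA-guided ribonuclease of the CRISPR family, with the high-fidelity variants RfxCas13d-N2V7 and RfxCas13d-N2V8, all delivered by transient transfection of plasmids. In the groups named S13, each effector was paired with crRNA-13, a guide RNA against the human C9ORF72 transcript, giving WT_S13, N2V7_S13 and N2V8_S13. In the groups named S3, S4 and S7, each effector was paired with an additional crRNA whose target the labels do not name (WT_S3, N2V7_S3, N2V8_S3 and so on). ASO2 and ASO4 were cells treated with an antisense oligonucleotide, a short synthetic strand that pairs with RNA. Each effector also had a control group with a non-targeting crRNA (WT_NTG, N2V7_NTG and N2V8_NTG), and UT cells were not transfected. All groups share the same unmodified cell line, and WT stands for the native effector and not for the cells. Cells were collected at 48 h by the labels, whereas the study's Results name a later time. The effectors were expressed from plasmids in a mixed culture, so each library averages cells that took up plasmid and cells that did not, and a smaller number of responding cells cannot be told apart from less RNA per cell.

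In the integrated stress response, kinases that sense starvation, viral RNA, heme shortage or misfolded protein in the endoplasmic reticulum phosphorylate the initiation factor eIF2. Bulk protein synthesis then slows, while upstream open reading frames let the mRNAs of ATF4, ATF5, DDIT3 and PPP1R15A be translated. ATF4, together with C/EBP partners, switches on genes for amino acid supply and also its own brakes. Transcript levels, the only readout here, therefore report the transcriptional arm of the response and not eIF2 phosphorylation or ATF4 protein.

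ATF4 lies on chromosome 22 (39520559 to 39522686), ATF3 on chromosome 1 (212565407 to 212620777) and ATF5 on chromosome 19 (49928906 to 49933935) of GRCh38.p14, by RefSeq. DDIT3 lies on chromosome 12 (57516588 to 57520517), TRIB3 on chromosome 20 (380760 to 397559) and CEBPB on the same chromosome (50190583 to 50192690). CEBPG and PPP1R15A lie on chromosome 19 (33373709 to 33382686 and 48872421 to 48876058), DDIT4 on chromosome 10 (72273924 to 72276036) and SESN2 on chromosome 1 (28259518 to 28282491). Because these genes moved together in what follows, the windows from 250 bases before to 50 bases after their start sites were searched for motifs of the factors in the response. RefSeq gave 19 such windows for the 10 genes, among 35116 windows in all.

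The core of the C/EBP-ATF response element, TGATGNAA, on which ATF4 and a C/EBP partner bind, was searched on both strands and matched in 3.62% of all windows, those of ATF3 and CEBPG among them. The cAMP response element TGACGTCA, a palindrome bound by ATF and CREB family dimers, matched in 1.85% of all windows, with PPP1R15A the only one of the 10 genes to hold it. The endoplasmic reticulum stress response element, also searched on both strands, matched in 0.0769% of all windows and in 0 of the 10 genes. The matches are printed 5′ to 3′ on the gene's strand (plus in each case) with 10 bases on either side and the motif in capitals. They lie 191, 42 and 58 bases before the start site used. For ATF3 and PPP1R15A this is the first base of the gene given above, whereas for CEBPG it is a second start at 33374113, so that match lies inside the gene. A match of letters is a description and not a measured binding site.
ATF3, chr1:212565206-212565233: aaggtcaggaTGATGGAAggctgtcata
CEBPG, chr19:33374061-33374088: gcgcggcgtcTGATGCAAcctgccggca
PPP1R15A, chr19:48872353-48872380: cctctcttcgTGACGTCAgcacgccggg

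Values below are CPM (counts scaled to a common library size, by TMM), in libraries of 9546826 to 15099153 counts in which 17914 to 19762 genes were detected. The markers PAX2, KRT8, KRT18, VIM and NEFM were detected in all 54 libraries, while the neuroblastoma markers DBH and TH were at 0 in 53 and 50 libraries. C9orf72 averaged 24.4 to 29.9 CPM in every group except ASO4 (11 ± 0.77, SD, n = 3). It did not pass the test between crRNA-13 and non-targeting libraries of any effector, but the table sums its transcript variants, and crRNA-13 is aimed at exon 1a, which only some of them carry, so this is no check of those labels. Replicate 2 of N2V7_S4 stood apart from its group, and results that rest on it are given with and without it. The replicates are stated to be independent.

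Across the 18 groups, the 10 genes had broadly similar orders of groups (see the plot of CPM by group). ATF5, a bZIP factor close to ATF4, had the widest range, 6.02-fold between ASO4 cells (63.9 ± 9.08 CPM, SD, n = 3) and N2V8_NTG cells (10.6 ± 1.39 CPM). ATF4 itself had the narrowest, 1.43-fold between ASO2 cells (953 ± 40.6 CPM) and WT_S7 cells (664 ± 7.36 CPM). The other genes lay between these, up to 3.72-fold for TRIB3. WT_S7 was the lowest group for ATF4, DDIT3, TRIB3, CEBPB, CEBPG and DDIT4. PPP1R15A was lowest in N2V7_S13, ATF3 in N2V7_NTG and SESN2 in N2V7_S4, where replicate 2 held 33.4 CPM. The other N2V7_S4 libraries held 90.8 and 126 CPM of SESN2, above all WT_S7 libraries (mean 87.4 ± 2.49 CPM), so without replicate 2 WT_S7 was lowest for SESN2 too. Most neighbours in the order overlapped in their libraries. Of 17 neighbouring pairs per gene, 4 did not overlap for DDIT4, 2 for CEBPB, 1 each for ATF4, DDIT3, TRIB3 and CEBPG, and 0 for ATF3, ATF5, PPP1R15A and SESN2. Non-overlap, here and below, was not counted over all tested genes, so no share stands beside it.

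**Figure D1:**
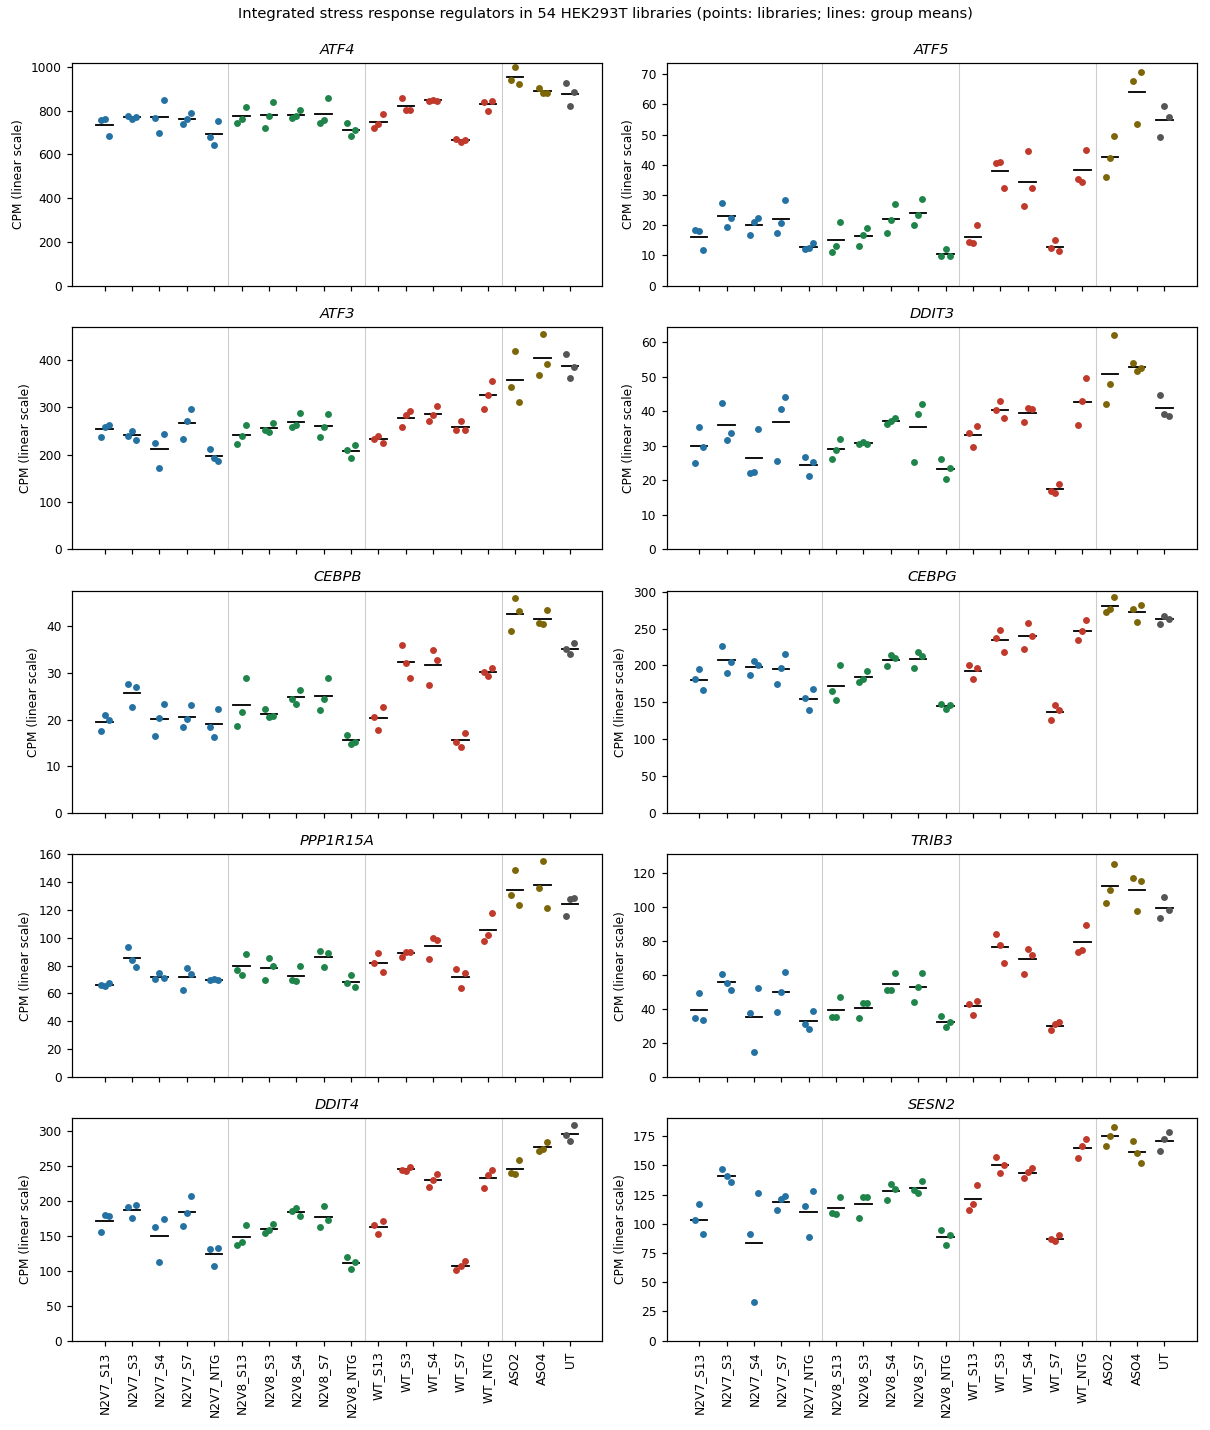
CPM (linear axis from 0) of the 10 regulators in the 18 groups, with 1 point per library and a line at the mean of 3 (blue, N2V7; green, N2V8; red, WT; brown, ASO; grey, UT). ATF5 ranged from 10.6 CPM in N2V8_NTG to 63.9 CPM in ASO4, whereas ATF4 ranged only from 664 CPM in WT_S7 to 953 CPM in ASO2.

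As a summary, the median over the 10 genes of log2 CPM was taken in each library relative to the UT group. It averaged 0.09 in ASO2 and 0.05 in ASO4. It was -0.22 in WT_NTG, -0.24 in WT_S3 and -0.31 in WT_S4, and then -0.50 to -0.96 in the other transfected groups except WT_S7, at -1.08. N2V8_NTG stood at -0.96 and N2V7_NTG at -0.86, so the 2 lowest groups after WT_S7 were controls with a non-targeting crRNA. This median is a description of the libraries and was not tested.

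**Figure D2:**
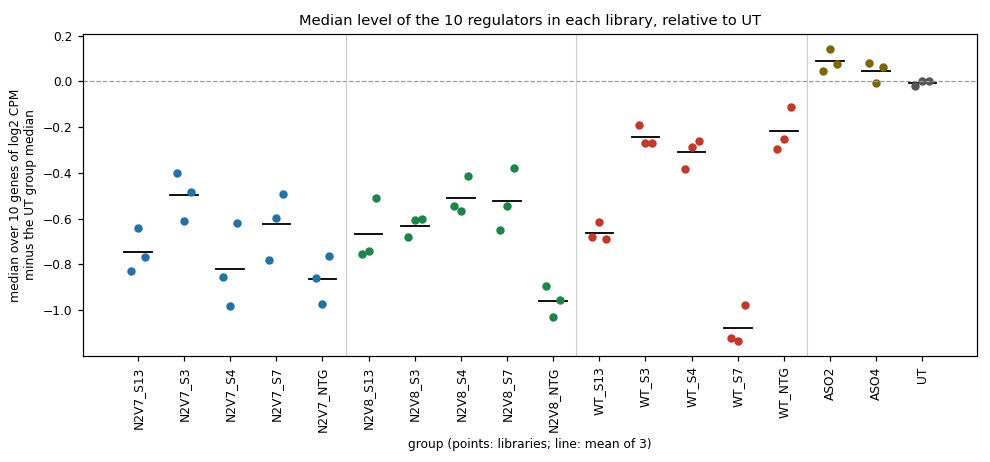
Median over the 10 regulators of log2 CPM minus the UT group (vertical axis, log2), 1 point per library, by group (blue, N2V7; green, N2V8; red, WT; brown, ASO; grey, UT). WT_S7 libraries lie at -1.13 to -0.98 and N2V8_NTG libraries at -1.03 to -0.90, while the ASO libraries lie at -0.01 to 0.14.

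The first comparison set cells given an effector and a non-targeting crRNA against UT cells. Since UT cells were not transfected, plasmid delivery and the effector cannot be told apart in any comparison with UT. A gene was called when its log2 difference exceeded 0.32 in either direction and its adjusted p in edgeR's quasi-likelihood test was under 0.05. In N2V7_NTG against UT cells all 10 genes fell, against 9.95% of all tested genes, and in N2V8_NTG against UT cells 9 fell, against 14.7% of all tested genes. In WT_NTG against UT cells 2 fell, against 2.38% of all tested genes. The 3 comparisons share the UT libraries.

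ATF5 stood at 12.0, 12.5 and 14.1 CPM in N2V7_NTG libraries and 9.94, 12.2 and 9.71 CPM in N2V8_NTG libraries, against 49.3, 59.3 and 55.7 CPM in UT libraries. It was 4.27-fold lower with N2V7 (log2 -2.09 ± 0.22, adjusted p = 1.99e-09) and 5.17-fold lower with N2V8 (log2 -2.37 ± 0.23, adjusted p = 3.21e-10). TRIB3, a pseudokinase that ATF4 and CHOP induce and that restrains both, stood at 31.1, 28.5 and 38.7 CPM in N2V7_NTG and 36.1, 29.3 and 32.2 CPM in N2V8_NTG, against 93.9, 106 and 98.6 CPM in UT. In neither gene did any library of these control groups reach a UT library, and TRIB3 was 3.05-fold and 3.06-fold lower (log2 -1.61 ± 0.15, adjusted p = 6.11e-11, and log2 -1.61 ± 0.15, adjusted p = 7.35e-11).

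DDIT4 (REDD1), an inhibitor of mTORC1, had the smallest adjusted p-values of the 10 genes here. Its level was 131, 107 and 133 CPM in N2V7_NTG and 120.4, 102 and 112 CPM in N2V8_NTG, against 294, 286 and 308 CPM in UT (log2 -1.25 ± 0.07, adjusted p = 1.24e-18, and log2 -1.41 ± 0.07, adjusted p = 4.1e-20). ATF3, a bZIP factor that ATF4 induces, was 1.95-fold and 1.86-fold lower. CEBPB and CEBPG, bZIP factors that pair with ATF4, had log2 differences of -0.88 and -0.76 in N2V7_NTG, and of -1.16 and -0.86 in N2V8_NTG. DDIT3, which encodes the pro-apoptotic factor CHOP, fell by 0.74 on the log2 scale with N2V7 and by 0.80 with N2V8.

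PPP1R15A (GADD34), which directs protein phosphatase 1 to eIF2 and so ends the response, fell by 0.83 on the log2 scale in N2V7_NTG and by 0.86 in N2V8_NTG. SESN2, a leucine sensor that holds mTORC1 in check, fell by 0.63 and 0.94. ATF4 had the smallest difference in both (-0.34 and -0.30), and in N2V8_NTG its difference stayed within the limit of 0.32 although its adjusted p was 6.02e-06. The ATF4 call in N2V7_NTG ended without N2V7_NTG replicate 2 (log2 -0.29) or UT replicate 1 (log2 -0.30).

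With the native effector the same control changed little. In WT_NTG against UT cells, ATF5 (35.2, 34.2 and 45 CPM in WT_NTG, log2 -0.52 ± 0.19, adjusted p = 0.0378) and DDIT4 (219, 237 and 244 CPM in WT_NTG, log2 -0.34 ± 0.07, adjusted p = 0.000122) fell. The other 8 genes had log2 differences from -0.33 (TRIB3) to 0.07 (DDIT3). TRIB3 was called when a term for replicate number was added (adjusted p = 0.0413). It was also called in a fit restricted to the compared libraries without the factor of unwanted variation, a term for residual spread (adjusted p = 0.00152). The DDIT4 call ended without UT replicate 3 (log2 -0.31, adjusted p = 0.00181) or WT_NTG replicate 1 (log2 -0.30, adjusted p = 0.00247), where the difference came to lie just within the limit. The ATF5 call ended without UT replicate 2 or 3 or WT_NTG replicate 1 or 2 (log2 -0.46, -0.51, -0.47 and -0.45), and with DESeq2 (adjusted p = 0.0532).

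Set directly against WT_NTG, 9 of the 10 genes were lower in N2V7_NTG, against 5.35% of all tested genes, and 9 in N2V8_NTG, against 12.0%. These comparisons share the WT_NTG libraries. ATF5 was 2.97-fold lower in N2V7_NTG and 3.60-fold lower in N2V8_NTG, TRIB3 2.42-fold and 2.43-fold, and DDIT4 1.88-fold and 2.09-fold. ATF4 was the gene not called (log2 -0.26 ± 0.05, adjusted p = 7.05e-05 for N2V7, and log2 -0.22 ± 0.05, adjusted p = 0.000838 for N2V8), both within the limit of 0.32. The starting level of these genes in the 3 control groups was thus not the same, which bears on every comparison with a non-targeting control below.

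The main comparison of the study set crRNA-13 against the non-targeting crRNA of the same effector. In WT_S13 cells 8 of the 10 regulators fell relative to WT_NTG, against 4.24% of all tested genes, and 0 rose. In N2V7_S13 cells 2 rose relative to N2V7_NTG (3.66% of all tested genes did) and in N2V8_S13 cells 3 rose relative to N2V8_NTG (1.72% of all tested genes did), with 0 lower in either. The median log2 change of the 10 genes was -0.47, 0.24 and 0.28 in this order of effectors, where the median of all tested genes was 0.00, 0.01 and 0.00.

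ATF5 stood at 14.6, 14.1 and 20.1 CPM in WT_S13 libraries, against 35.2, 34.2 and 45 CPM in WT_NTG libraries. Every WT_S13 library lay below every WT_NTG library, a 2.35-fold lower level (log2 -1.23 ± 0.22, adjusted p = 7.3e-05). TRIB3 stood at 43.2, 36.7 and 44.8 CPM in WT_S13, against 73.6, 74.9 and 89.4 CPM in WT_NTG. It too showed no overlap and was 1.91-fold lower (log2 -0.93 ± 0.14, adjusted p = 1.07e-05).

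Of the transcription factors, ATF3 had 233, 240.3 and 224 CPM in WT_S13, against 297, 325 and 356 CPM in WT_NTG (log2 -0.49 ± 0.09, adjusted p = 7.81e-05). CEBPB had 20.7, 17.8 and 22.6 CPM in WT_S13, against 30.2, 29.3 and 31.0 CPM in WT_NTG (log2 -0.56 ± 0.12, adjusted p = 0.000392). Both fell with no overlap of libraries, as did CEBPG (201, 181 and 197 CPM in WT_S13, against 235, 246 and 261 CPM in WT_NTG), by 0.36 on the log2 scale (adjusted p = 0.000808). ATF4 had 723, 739 and 784 CPM in WT_S13, against 840.1, 799 and 844 CPM in WT_NTG, a 1.11-fold lower level (log2 -0.15 ± 0.05, adjusted p = 0.0406) that was short of the limit. DDIT3 had 33.7, 29.8 and 35.7 CPM in WT_S13, against 36.0, 43.0 and 49.6 CPM in WT_NTG, and did not pass (log2 -0.38 ± 0.16, adjusted p = 0.104, 95% interval -0.71 to -0.05). DDIT3 was called without the low-count filter (log2 -0.39, adjusted p = 0.000145), in a fit of 27878 genes. Its log2 difference was near that of the main fit, and the cause of the lower adjusted p was not tested. DDIT3 was also called in a fit restricted to the compared libraries that left out the factor of unwanted variation (adjusted p = 0.0254). This factor is a term taken from the residuals of the fit, with 95.6% of its squared weight in N2V7_S4.

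Among the feedback and mTORC1 regulators, DDIT4 had 165, 152 and 172 CPM in WT_S13, against 219, 237 and 244 CPM in WT_NTG, and fell with the smallest adjusted p of the 10 genes (log2 -0.52 ± 0.07, adjusted p = 6.08e-07). SESN2 had 112, 117 and 133 CPM in WT_S13, against 156, 166 and 173 CPM in WT_NTG (log2 -0.45 ± 0.08, adjusted p = 5.29e-05), a call that ended in a fit without the factor of unwanted variation (adjusted p = 0.118). PPP1R15A had 81.9, 89.0 and 75.7 CPM in WT_S13, against 97.7, 102 and 118 CPM in WT_NTG (log2 -0.37 ± 0.09, adjusted p = 0.00327). Each of the 3 fell without overlap of libraries, a trait not counted over all tested genes. The calls that ended when 1 library was left out were PPP1R15A (log2 -0.28 without WT_NTG replicate 3, and -0.31 without WT_S13 replicate 3) and CEBPG (log2 -0.32 without WT_NTG replicate 3 or WT_S13 replicate 2). Over the libraries left out, 6 to 9 genes were called, with no share of all tested genes given for those fits. WT_S13 libraries held 19434 to 19696 detected genes and WT_NTG libraries 18392 to 18636, and the part of this difference in the result was not tested.

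**Figure D3:**
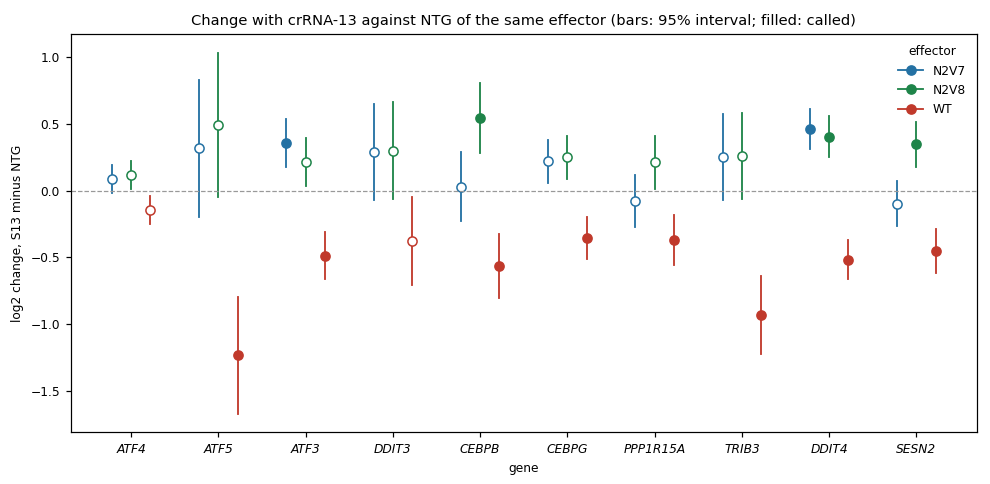
Log2 difference, crRNA-13 minus non-targeting crRNA of the same effector, for the 10 regulators with 95% intervals (blue, N2V7; green, N2V8; red, WT; filled points, called). With WT, ATF5 stood at -1.23 and TRIB3 at -0.93, whereas DDIT4 stood at 0.46 with N2V7 and 0.41 with N2V8.

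With the high-fidelity effectors the genes that passed went up. In N2V7_S13, DDIT4 rose (156, 179 and 178 CPM, against 131, 107 and 133 CPM in N2V7_NTG, log2 0.46 ± 0.07, adjusted p = 7.6e-06). ATF3 rose as well (238, 259 and 262 CPM, against 213, 193 and 187 CPM in N2V7_NTG, log2 0.35 ± 0.09, adjusted p = 0.00362). In both, the groups did not overlap, but the ATF3 call ended without N2V7_NTG replicate 3 (log2 0.32), which left 1 gene called. CEBPG reached an adjusted p of 0.0474 within the limit of 0.32, and SESN2, PPP1R15A, CEBPB, TRIB3, ATF4, DDIT3 and ATF5 had log2 differences from -0.10 to 0.32.

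In N2V8_S13, CEBPB rose (18.7, 21.6 and 28.9 CPM, against 16.8, 14.9 and 15.3 CPM in N2V8_NTG, log2 0.55 ± 0.13, adjusted p = 0.00186). DDIT4 rose (137, 142 and 166 CPM, against 120.4, 102 and 112 CPM in N2V8_NTG, log2 0.41 ± 0.08, adjusted p = 8.4e-05), and so did SESN2 (109, 109 and 123 CPM, against 94.9, 81.9 and 90.3 CPM in N2V8_NTG, log2 0.35 ± 0.08, adjusted p = 0.00261). None of these groups overlapped. Replicate 3 was the highest N2V8_S13 library for all 3 genes, and without it 0 of the 10 genes were called (CEBPB log2 0.36, DDIT4 0.32, SESN2 0.29). The SESN2 call also ended without N2V8_NTG replicate 2 (log2 0.29), and without the factor of unwanted variation (adjusted p = 0.267). Ribosomal RNA genes took 4.17 to 4.42% of counts in N2V7_S13 against 1.76 to 3.07% in N2V7_NTG, and 3.98 to 4.96% in N2V8_S13 against 1.81 to 3.52% in N2V8_NTG, and their part in these results was not tested.

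Whether the effect of crRNA-13 differed between effectors was tested as a difference of differences, the high-fidelity effect minus the WT effect. For N2V7 minus WT, 8 of the 10 genes had a higher effect, against 6.24% of all tested genes, and for N2V8 minus WT 9 had, against 8.53%. The largest differences were those of ATF5 (1.55 for N2V7, adjusted p = 0.000674, and 1.73 for N2V8, adjusted p = 0.00028) and TRIB3 (1.18 and 1.19). DDIT4 differed by 0.98 and 0.92, with adjusted p = 4.88e-10 and 2.96e-09. ATF4 differed by 0.23 and 0.27 within the fold limit, and PPP1R15A by 0.29 for N2V7 (adjusted p = 0.119). Each difference holds the lower N2V7_NTG or N2V8_NTG level described above as well as the level with crRNA-13. Both share the WT libraries.

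The levels with crRNA-13 were close to each other in several genes. ATF5 averaged 16.1 ± 3.70 CPM in N2V7_S13, 15.1 ± 5.22 CPM in N2V8_S13 and 16.2 ± 3.34 CPM in WT_S13 (SD, n = 3 each). TRIB3 averaged 39.3 ± 8.97 CPM in N2V7_S13, 39.3 ± 6.79 CPM in N2V8_S13 and 41.6 ± 4.31 CPM in WT_S13. The libraries of these groups overlapped in both genes, and the differences were not tested.

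The additional crRNAs gave a wider picture, again with 1 set of NTG libraries shared by all crRNAs of an effector. With WT, 9 of the 10 genes fell in WT_S7, against 9.83% of all tested genes. In WT_S3 and WT_S4, 0 were called, where 2.74% and 2.67% of all tested genes were called in either direction. At an unadjusted p under 0.05 there were 2 genes in WT_S3 and 2 in WT_S4, and the share of all tested genes at that threshold was not taken. DESeq2 and limma-trend also called 0 in both.

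In WT_S7, DDIT3 stood at 17.0, 16.4 and 19.0 CPM, against 36.0, 43.0 and 49.6 CPM in WT_NTG, a 2.45-fold lower level (log2 -1.29 ± 0.18, adjusted p = 1.09e-06). This is the gene that did not pass with crRNA-13. ATF5 stood at 12.4, 15 and 11.5 CPM (log2 -1.57 ± 0.23, adjusted p = 3.17e-06), TRIB3 at 27.4, 31.2 and 32.2 CPM (log2 -1.39 ± 0.15, adjusted p = 1.15e-08) and DDIT4 at 101, 107 and 114 CPM (log2 -1.11 ± 0.07, adjusted p = 8.08e-16). In each of these the WT_S7 libraries lay below all WT_NTG libraries. CEBPB, SESN2, CEBPG and PPP1R15A fell by 0.95, 0.92, 0.85 and 0.56 on the log2 scale. ATF3 fell by 0.34 and its call ended without WT_NTG replicate 3 (log2 -0.27), WT_S7 replicate 1 or WT_S7 replicate 3 (both log2 -0.32). ATF4 stayed just short of the limit of 0.32 (log2 -0.32 ± 0.05, adjusted p = 4.79e-06).

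With the high-fidelity effectors the additional crRNAs gave mostly higher levels than the non-targeting control. In N2V8_S7 9 of the 10 genes rose, against 3.86% of all tested genes, in N2V8_S4 8 (2.95%) and in N2V8_S3 4 (2.15%). In N2V7_S3 7 rose, against 3.13%, and in N2V7_S7 6, against 5.38%. ATF5 rose to 19.9, 23.5 and 28.8 CPM in N2V8_S7 (log2 1.18 ± 0.25, adjusted p = 0.000706), against 9.94, 12.2 and 9.71 CPM in N2V8_NTG, and the groups did not overlap. DDIT4 was called in each of these 5 comparisons, with 191, 175 and 194 CPM in N2V7_S3 (log2 0.59 ± 0.07, adjusted p = 3.31e-08) against 131, 107 and 133 CPM in N2V7_NTG. CEBPG was called in all 5 as well, with log2 differences from 0.34 (N2V7_S7) to 0.53 (N2V8_S7). ATF4 was called in none of them, with log2 differences of 0.13 to 0.15.

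Some of these counts depended on 1 library, and no share of all tested genes is given for the fits that left 1 out. N2V7_S3 had 3 calls without N2V7_S3 replicate 1 and 4 without N2V7_NTG replicate 2. N2V7_S7 had 2 without N2V7_S7 replicate 3 and 3 without N2V7_NTG replicate 2, and N2V8_S3 had 2 without N2V8_NTG replicate 2. N2V8_S4 stayed at 8 over the libraries left out. N2V8_S7 had 6 to 8, below its 9 in the full fit, as calls of ATF3, DDIT3 and PPP1R15A ended.

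N2V7_S4 differed from the rest. CEBPG rose (187, 206 and 200.1 CPM, against 156, 139.7 and 168 CPM in N2V7_NTG, log2 0.35 ± 0.08, adjusted p = 0.00131), where 9.66% of all tested genes were called higher, and SESN2 was lower, where 14.5% were called lower. These shares depended on the fit. Without the factor, 1518 of 15378 genes were higher and 1451 lower. In the fit restricted to the compared libraries without the factor, 129 of 13992 were higher and 237 lower. There CEBPG and SESN2 were not called (adjusted p = 0.0859 and 0.625), and ATF5 was (log2 0.64, adjusted p = 0.0478). SESN2 had 90.8, 33.4 and 126 CPM in N2V7_S4, against 115, 88.9 and 128 CPM in N2V7_NTG, so the groups overlapped and the difference (log2 -0.59 ± 0.09, adjusted p = 1.88e-06) lay in replicate 2. Without that library it was -0.03 (adjusted p = 0.879), and without the factor of unwanted variation -0.40 (adjusted p = 0.201). TRIB3 showed the same spread (37.6, 14.9 and 52.5 CPM) and was not called. The CEBPG call ended without N2V7_S4 replicate 2 (log2 0.32) or N2V7_NTG replicate 2 (log2 0.28).

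The tests of the difference between effectors covered these crRNAs too. For S7 all 10 genes had a higher effect with N2V7 than with WT, against 12.0% of all tested genes, and all 10 with N2V8, against 14.5%. The S7 differences ran from 0.46 (ATF4) to 2.35 (ATF5) for N2V7 and from 0.46 (ATF4) to 2.75 (ATF5) for N2V8. For S3, 8 genes were higher with N2V7 (4 without the factor of unwanted variation), against 3.35%, and 5 with N2V8 (8 without the low-count filter), against 2.52%. Those shares are of the main fit. Without the factor 298 of 15378 genes were higher with N2V7, and without the filter 532 of 27878 with N2V8. For S4, 8 were higher with N2V8, against 4.60%. For N2V7 with S4, CEBPG was higher (0.39), where 8.18% of all tested genes were, and SESN2 lower (-0.39), where 11.7% were. In the restricted fit without the factor, 244 of 14529 genes were higher and 365 lower, and SESN2 was not called (adjusted p = 0.811). Without N2V7_S4 replicate 2 the SESN2 difference was 0.17 (adjusted p = 0.368) and 4 genes were called, all higher.

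**Figure D4:**
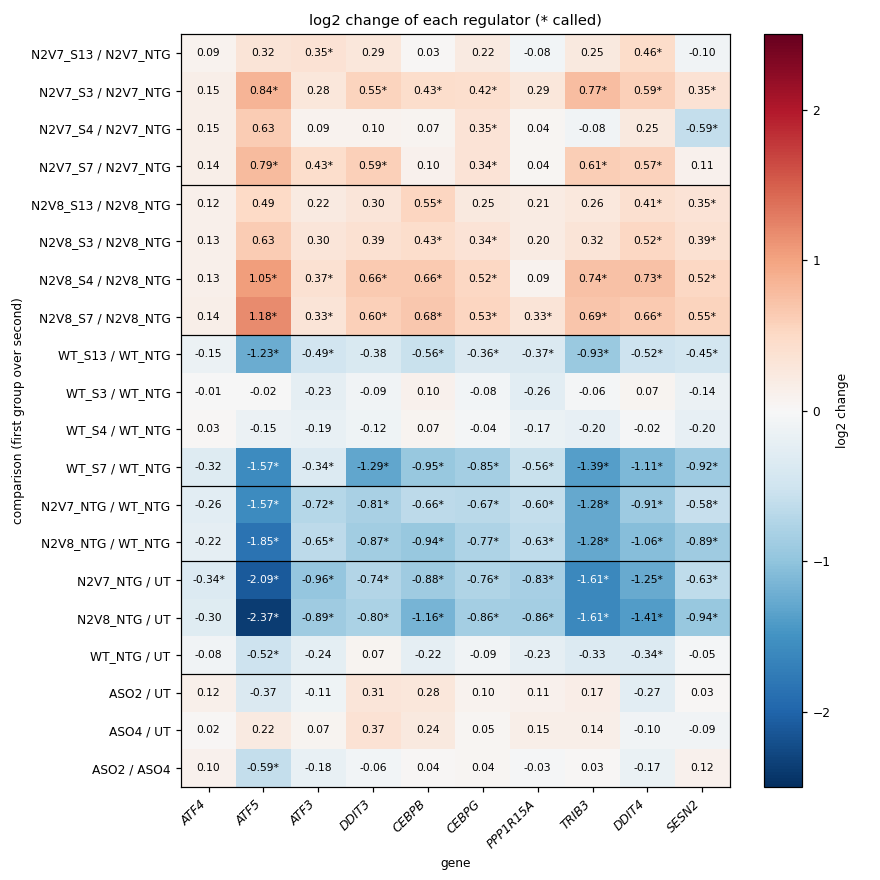
Log2 differences of the 10 regulators (columns) in 20 comparisons (rows), with the colour scale in log2 and an asterisk where a gene was called. Rows with WT_S7 and the N2V7 and N2V8 controls against UT are negative throughout (-2.37 for ATF5 in N2V8_NTG), and the ATF4 column is the palest.

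Since the 3 non-targeting groups differed, each targeting group was also set against UT cells, a choice made after the values were seen. In these 12 comparisons, which share the UT libraries, 0 genes were higher. With crRNA-13, 8 genes were lower in WT_S13 (9.21% of all tested genes were), 9 in N2V7_S13 (14.3%) and 9 in N2V8_S13 (9.28%). With S3, 4 were lower in WT_S3 (4.03%), 7 in N2V7_S3 (5.42%) and 8 in N2V8_S3 (12.0%). With S4, 5 were lower in WT_S4 (3.64%), 9 in N2V7_S4 (19.2%) and 8 in N2V8_S4 (9.14%). In the fit restricted to N2V7_S4 and UT without the factor, 849 of 13885 genes were lower. DDIT3 and SESN2 were not called there (adjusted p = 0.0559 and 0.105). With S7, 10 were lower in WT_S7 (13.4%), 8 in N2V7_S7 (14.8%) and 8 in N2V8_S7 (7.28%). ATF5 was called in each of the 12, from -0.54 (WT_S3) to -2.09 (WT_S7), whereas ATF4 was called only in WT_S7 (-0.40). The WT_S3 count was 2 without UT replicate 2 or WT_S3 replicate 3, where ATF5 and TRIB3 did not pass.

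Levels in cells given an oligonucleotide stayed near those of UT cells. Of the 10 genes, 0 were called in ASO2 against UT, where 16.1% of all tested genes were called in either direction, and 0 in ASO4 against UT, where 2.13% were. DESeq2 and limma-trend also called 0 in both. An unadjusted p under 0.05 was found for 3 genes in ASO2 and 2 in ASO4, with no share of all tested genes taken. Without the low-count filter, ATF5 was called lower in ASO2 (log2 -0.37, adjusted p = 0.000568) and DDIT3 higher in ASO4 (log2 0.39, adjusted p = 9.99e-05), as both were in the restricted fit without the factor (adjusted p = 0.026 and 0.00171). Both log2 differences were near those of the main fit, and the cause of the lower adjusted p was not tested. ATF5 had the largest difference in ASO2, with 35.9, 42.2 and 49.6 CPM in ASO2, against 49.3, 59.3 and 55.7 CPM in UT (log2 -0.37 ± 0.19, adjusted p = 0.207). DDIT4 had 240.2, 239 and 258 CPM in ASO2, against 294, 286 and 308 CPM in UT. The groups did not overlap, but the difference stayed within the limit of 0.32 (log2 -0.27 ± 0.07, adjusted p = 0.00467). CEBPB had 39.0, 46.1 and 43.2 CPM in ASO2 and 40.7, 40.6 and 43.4 CPM in ASO4, against 35.1, 34.1 and 36.5 CPM in UT, and did not pass in either (log2 0.28 ± 0.11, adjusted p = 0.0761, and log2 0.24 ± 0.11, adjusted p = 0.137). DDIT3 had log2 differences of 0.31 (95% interval -0.02 to 0.63) and 0.37 (0.05 to 0.69), and neither interval excludes a rise past the limit.

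Between the oligonucleotides, ATF5 was the 1 gene called, lower in ASO2, where 7.33% of all tested genes were lower. The ASO2 libraries given above compare with 67.6, 53.6 and 70.6 CPM in ASO4 (log2 -0.59 ± 0.19, adjusted p = 0.0196), with no overlap. The call ended when ASO2 replicate 1 or 2, or ASO4 replicate 1 or 3, was left out (log2 -0.48, -0.59, -0.55 and -0.52). ASO2 and ASO4 cells both received an oligonucleotide. UT was the only control for the oligonucleotides, so delivery and sequence cannot be told apart in the comparisons with UT.

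Other genes of the pathway were then counted from lists chosen here with earlier results of these data known. Of 45 enzymes, transporters, tRNA synthetases and secreted factors that ATF4 is known to induce, 15 were lower and 3 higher in WT_S13 against WT_NTG (median log2 -0.22), with 4.24% and 6.53% of all tested genes called. SLC7A11, the cystine transporter, was among the lower ones (log2 -0.84). GDF15, a secreted stress cytokine, was higher (log2 1.15, 6.48 CPM in WT_S13 against 2.91 CPM in WT_NTG), as was FGF21, a stress hormone, on 7 to 19 counts per library in WT_S13 against 2 to 3 in WT_NTG. In N2V7_S13 12 were higher and 0 lower (median 0.23), with 3.66% and 7.78% of all tested genes called, led by ASNS, which makes asparagine (log2 0.72), PCK2, mitochondrial phosphoenolpyruvate carboxykinase (0.62), and PSAT1 of serine synthesis (0.49). In N2V8_S13 13 were higher and 0 lower (median 0.22), with 1.72% and 0.715% of all tested genes called, led by CHAC1, which degrades glutathione (log2 0.89), SLC7A11 (0.84) and ASNS (0.72).

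The same list had 31 genes lower and 0 higher in WT_S7 (median -0.52), 27 lower and 1 higher in N2V7_NTG against UT (median -0.40), and 24 lower and 1 higher in N2V8_NTG against UT (median -0.37). Of all tested genes, 9.83%, 9.95% and 14.7% were lower in these comparisons and 9.36%, 10.9% and 15.3% higher. In WT_NTG against UT 1 was lower and 0 higher, with 2.38% and 2.71% of all tested genes called. In ASO2 4 of the 45 were higher and 1 lower, a count near or below the share of all tested genes (7.07% higher and 9.01% lower), with the called genes including NUPR1, a stress-induced nuclear protein (log2 0.65), ASNS (0.46) and WARS1, the tryptophanyl-tRNA synthetase (0.43). In ASO4 2 were higher, GDF15 (log2 0.94) and ASNS (0.36), with 0 lower, where 0.917% and 1.22% of all tested genes were called. The signs of these medians matched those of the 10 regulators in WT_S13, N2V7_S13, N2V8_S13, WT_S7, N2V7_NTG and N2V8_NTG, and differed in WT_NTG against UT (0.07 for the list, -0.22 for the regulators). The signs also differed in WT_S3 against WT_NTG (0.03 and -0.07) and ASO2 against ASO4 (0.02 and -0.002). Against UT they differed in WT_S3 (0.07 and -0.23) and WT_S4 (0.01 and -0.31) as well.

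Counts in the next lists are read against the shares of all tested genes. With crRNA-13 these were 6.53% higher and 4.24% lower in WT_S13, 3.66% and 7.78% in N2V7_S13, and 1.72% and 0.715% in N2V8_S13. In ASO2 they were 7.07% and 9.01%. Of 22 genes for eIF2 kinases, eIF2, eIF2B and their phosphatases, 1 was called in WT_S13 (EIF2B1, a subunit of the eIF2 exchange factor, log2 0.41), 2 in N2V7_S13 (EIF2AK2, the kinase PKR, -0.44, and PPP1CC, a phosphatase catalytic subunit, 0.36) and 0 in N2V8_S13. In ASO2, GCN1 (log2 -0.40), which activates the kinase GCN2, and EIF2AK2 (-0.37) were lower. These counts with crRNA-13 and ASO2 lay near or below the shares. In N2V8_NTG against WT_NTG 5 of the 22 were higher and 4 lower, where 12.2% and 12.0% of all tested genes were called, and in N2V7_S4 5 were higher, where 9.66% were. The list was not counted in the restricted fit without the factor, where 129 of 13992 genes were higher in N2V7_S4. Of 37 other bZIP factors tested, out of 39 listed, 9 were lower and 2 higher in WT_S13, among them FOS (log2 -0.64), MAFF (-0.56) and HLF (0.60). In N2V7_S13 XBP1, the effector of the IRE1 arm of the unfolded protein response, was higher (log2 0.46), and NFE2L1 (-0.42) and MAFG (-0.37) were lower. In N2V8_S13 JUND (log2 0.47), JDP2 (0.36) and JUN (0.34) were higher. In ASO2 4 were higher and 5 lower, among them CEBPD (log2 0.82), HLF (-0.60) and FOSL2 (-0.59).

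Of 22 endoplasmic reticulum chaperones and degradation factors, 5 were lower and 0 higher in WT_S13 (median log2 -0.23), where 4.24% and 6.53% of all tested genes were. Among the 5 were ERN1, the sensor IRE1 (-0.45), and SEL1L (-0.40) and SYVN1 (-0.40) of the degradation complex. In N2V7_S13 SYVN1 was lower (log2 -0.45) and DNAJB9, a co-chaperone, higher (0.35), and in N2V8_S13 0 were called. In ASO2 SEC61B (log2 0.66), SDF2L1 (0.65) and HSPA5, the chaperone BiP (0.51), were higher. Of 27 genes of the sestrin, tribbles and mTORC1 circuit, RRAGB (log2 0.57) and TSC2 (-0.33) were called in WT_S13, near or below those shares. In N2V7_S13 CASTOR2 (log2 -0.82), RPTOR (-0.55) and TSC1 (-0.45) were lower, with 1 more gene called. In ASO2 4 were lower and 3 higher, among them RPTOR (log2 -0.74), RRAGB (0.55) and TRIB2 (0.48). A low count in these lists does not show that the genes did not differ.

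**Figure D5:**
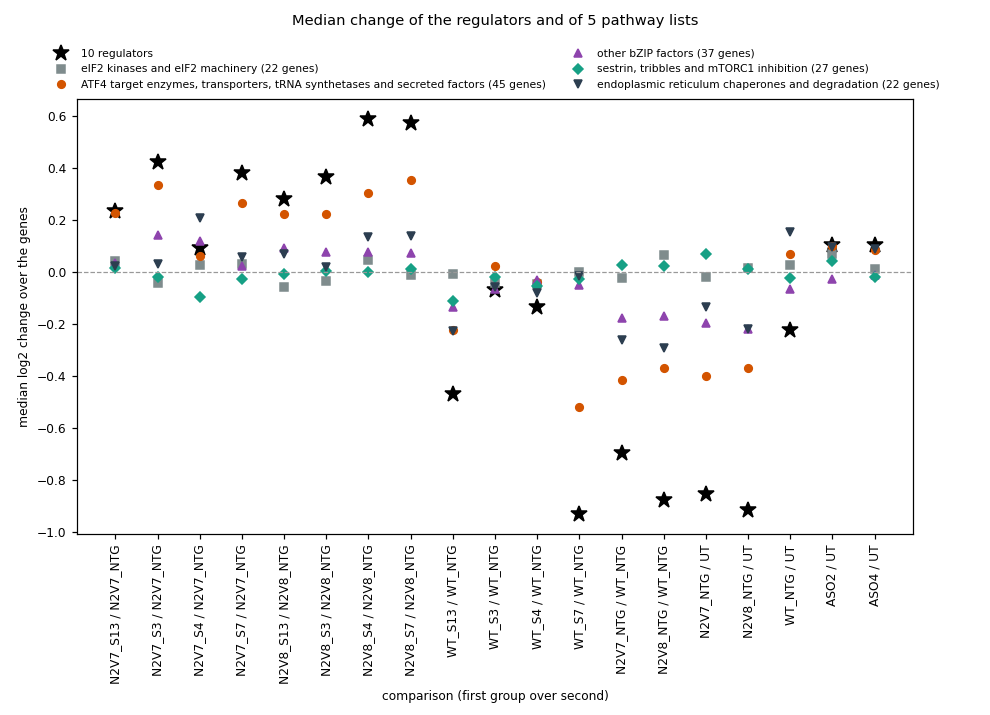
Median log2 difference of the 10 regulators (stars) and of the 5 pathway lists in 19 comparisons. In WT_S13 the regulators stood at -0.47 and the ATF4 target list at -0.22, while the eIF2 machinery stood at -0.01.

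Across the 18 group medians of log2 CPM, the 10 genes were positively correlated in all pairs. Pearson's r between pairs ran from 0.72 (DDIT3 and PPP1R15A) to 0.97 (CEBPG and DDIT4). The genes most like each member, among the 11764 genes that averaged a log2 CPM of 2 or more, included other members for ATF5, TRIB3, CEBPB, CEBPG and DDIT4, and 0 members for ATF3, ATF4, DDIT3, PPP1R15A and SESN2. TRIB3 was among the 3 closest to ATF5 (r = 0.958), CEBPB to TRIB3 (0.964), and CEBPG to DDIT4 (0.966). VEGFA, the vascular growth factor, was the closest gene to ATF5 (0.972), PHGDH, the first enzyme of serine synthesis, to DDIT3 (0.943), and GTPBP2 to PPP1R15A (0.952). FUT1 was the closest gene to TRIB3 (0.968), CEBPB (0.972) and SESN2 (0.953). ATF4 followed HOXB9 (0.962) and ASS1, which makes the precursor of arginine (0.952), and ATF3 followed EEF2 (0.957) and NFIL3 (0.950). The points share effectors, crRNAs and control libraries, so no p is given. The group medians of the 10 genes had r of 0.32 to 0.44 with total count and -0.48 to -0.16 with the number of genes detected.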

How the data were processed

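Poly(A) RNA of HEK293T cells was sequenced in 54 libraries, 18 groups of 3, with groups taken from the labels. The authors deposited 1 table of estimated counts, summed to genes with tximport (lengthScaledTPM, so scaled for transcript length) from quantification by Salmon (version 1.5.2 in the submitters' processing notes). A second deposited value (unit: other) marks the genes the authors kept and was not used. Counts were rounded. In R (version 4.3.3), genes were filtered with filterByExpr of edgeR (version 4.0.16), leaving 15378, and TMM set the scaling.

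The 54 libraries entered 1 quasi-likelihood fit in edgeR with a term for each group and a factor of unwanted variation taken from the residuals (RUVr). This factor held 23.5% of the residual variance, 95.6% of its squared weight in N2V7_S4. P-values were adjusted by Benjamini-Hochberg within each of 8 families of comparisons (40 comparisons in all), over every tested gene, with 35 residual degrees of freedom. The fit was tested on simulated data. DESeq2 (version 1.42.0), limma-trend (limma version 3.58.1), DESeq2 size factors, no factor, no filter, only the compared libraries with no factor, a replicate block and each library left out were alternatives. All 10 members are named throughout, the 3 genes of highest r per member, and up to 3 called genes of largest change per list for crRNA-13 and the oligonucleotides. The members and lists were chosen with earlier results of these data known. Same-numbered libraries of different groups did not deviate together (mean r 0.001 over 459 pairs). No libraries of the same group were duplicates (54 pairs), and pairs from different groups were not checked for this.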

Additional observations from a re-analysis of the deposited data

Results flagged for a closer look

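The differences below are listed because the effect of a crRNA on the gene, against the non-targeting crRNA of the same effector, differed between a high-fidelity effector and the native effector in edgeR's quasi-likelihood test of that difference. Each value is a log2 difference, N2V7 or N2V8 minus WT, and the comparisons of one crRNA share the WT libraries. The control levels of the effectors differed too, as given above, and each value holds both.

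The effect of crRNA-13 (S13) with N2V7 minus WT was 0.84 for ATF3, 1.55 for ATF5, 0.67 for DDIT3, 1.18 for TRIB3, 0.59 for CEBPB, 0.58 for CEBPG, 0.98 for DDIT4 and 0.35 for SESN2. The effect of crRNA-13 (S13) with N2V8 minus WT was 0.70 for ATF3, 1.73 for ATF5, 0.68 for DDIT3, 1.19 for TRIB3, 1.11 for CEBPB, 0.61 for CEBPG, 0.58 for PPP1R15A, 0.92 for DDIT4 and 0.80 for SESN2. The DDIT3 calls of both effectors ended when single libraries were left out, among them WT_NTG replicate 3 (0.55 for N2V7 and 0.56 for N2V8). The SESN2 call for N2V7 ended without any of 5 libraries, with the lowest value without N2V7_NTG replicate 2 (0.22, adjusted p = 0.137).

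The effect of S7 with N2V7 minus WT was 0.77 for ATF3, 0.46 for ATF4, 2.35 for ATF5, 1.88 for DDIT3, 1.99 for TRIB3, 1.05 for CEBPB, 1.19 for CEBPG, 0.60 for PPP1R15A, 1.69 for DDIT4 and 1.02 for SESN2. The effect of S7 with N2V8 minus WT was 0.66 for ATF3, 0.46 for ATF4, 2.75 for ATF5, 1.89 for DDIT3, 2.07 for TRIB3, 1.63 for CEBPB, 1.38 for CEBPG, 0.89 for PPP1R15A, 1.78 for DDIT4 and 1.47 for SESN2.

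The effect of S3 with N2V7 minus WT was 0.51 for ATF3, 0.86 for ATF5, 0.64 for DDIT3, 0.83 for TRIB3, 0.49 for CEBPG, 0.54 for PPP1R15A, 0.52 for DDIT4 and 0.49 for SESN2. Here the ATF5 and DDIT3 calls ended without any of several libraries, among them WT_NTG replicate 3 (0.72 and 0.52) and N2V7_S3 replicate 1 (0.72 and 0.50). The effect of S3 with N2V8 minus WT was 0.53 for ATF3, 0.42 for CEBPG, 0.45 for PPP1R15A, 0.45 for DDIT4 and 0.53 for SESN2. The PPP1R15A call ended without WT_NTG replicate 3 (0.37, adjusted p = 0.0539).

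The effect of S4 with N2V7 minus WT was 0.39 for CEBPG and -0.39 for SESN2. The SESN2 value was 0.17 (adjusted p = 0.368) without N2V7_S4 replicate 2, which held 33.4 CPM of SESN2 where the other N2V7_S4 libraries held 90.8 and 126. The effect of S4 with N2V8 minus WT was 0.56 for ATF3, 1.2 for ATF5, 0.78 for DDIT3, 0.94 for TRIB3, 0.59 for CEBPB, 0.56 for CEBPG, 0.75 for DDIT4 and 0.72 for SESN2. The DDIT3 call ended without N2V8_NTG replicate 2 (0.69) or WT_NTG replicate 3 (0.66).

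In a fit without the factor of unwanted variation, the SESN2 calls of N2V7 in S13, S3 and S4 ended (adjusted p = 0.435, 0.24 and 0.7), as did those of N2V8 in S3 and S4 (adjusted p = 0.201 and 0.0653). The DDIT3 calls of N2V7 and N2V8 in S13 and of N2V7 in S3 ended too (adjusted p = 0.0577, 0.0559 and 0.0684), and so did the ATF5 and TRIB3 calls of N2V7 in S3 (adjusted p = 0.0518 and 0.0632).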

How the results depend on the processing

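Of the 251 calls of the 10 genes over 40 comparisons, 249 held with DESeq2, 249 with DESeq2 size factors, 251 with limma-trend, 250 without the low-count filter, 239 in fits restricted to the compared libraries without the factor of unwanted variation, and 229 without the factor in the full fit. The replicate block ended 0 of the 251 calls and added 2. It left 8 calls in WT_S13, 2 in N2V7_S13 and 3 in N2V8_S13 against their controls, and since same-numbered libraries did not deviate together, the numbers were not treated as pairs. With the block, 658 of 15378 tested genes were lower in WT_S13, and 568 and 273 higher in N2V7_S13 and N2V8_S13. Leaving out each library gave 1866 values, of which 1750 had the same call, 115 lost it and 1 changed sign, with 17 calls added.

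The count moved by over 1.5 times as follows, and the cause was not tested. Without the low-count filter it was 1 in ASO2 against UT, 1 in ASO4 against UT, 8 for N2V8 minus WT in S3 and 7 in N2V8_S3 against N2V8_NTG. Of 27878 genes in that fit, 1402 were lower in ASO2, and 237, 532 and 408 higher in the others in this order. In the restricted fits without the factor (both changed at once) it was 1, 1 and 7 in the same order for ASO2, ASO4 and N2V8_S3, 1 for N2V7 minus WT in S4 and 1 in N2V7_S4. Of all genes in those fits, 1347 of 14053 were lower in ASO2, and 108 of 13997 higher in ASO4. Higher were also 237 of 14117 in N2V8_S3, 244 of 14529 for N2V7 minus WT in S4, and 129 of 13992 in N2V7_S4. Without the factor it was 4 for N2V7 minus WT in S3, 1 for N2V7 minus WT in S4 and 1 in N2V7_S4. Of 15378 tested genes, 298, 979 and 1518 were higher in this order. With DESeq2 it was 1 in WT_NTG against UT, where 303 of 15378 tested genes were lower. Over the libraries left out, the counts ran from 0 to 1 in ASO2 against ASO4, 2 to 4 for N2V7 minus WT in S4, 1 to 2 in N2V7_S13, 3 to 8 in N2V7_S3, 1 to 2 in N2V7_S4, 2 to 6 in N2V7_S7, 0 to 4 in N2V8_S13, 2 to 5 in N2V8_S3, 0 to 3 in WT_NTG against UT and 2 to 4 in WT_S3 against UT. For fits with a library left out, the share of all tested genes is not given. SESN2 for N2V7 minus WT in S4 (-0.39) ran from -0.77 without N2V7_S4 replicate 3 to 0.17, with its sign changed, without N2V7_S4 replicate 2. Of the calls lost without the factor, those of SESN2 included WT_S13 (log2 -0.45) and N2V8_S13 (log2 0.35). Of the 10 genes, ATF5 had the lowest count in any library (100), where CEBPB had 144, TRIB3 145 and DDIT3 167. The part of depth in the results was not tested.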
